A study of Homo sapiens with 64 samples.

Results

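Gene expression was compared between BEAS-2B cells exposed to formoterol for 18 h and untreated cells collected at the same time, to describe what was left of the response to the agonist across genes. The comparison rests on 8 of the 64 arrays of the study, the 4 titled for formoterol at 18 h and the 4 titled for untreated cells at 18 h. BEAS-2B is an immortalised line derived from human bronchial epithelium and was kept without serum overnight before treatment; all arrays come from this 1 line. Formoterol, a long-acting beta-agonist inhaled in asthma, was given at 10 nM with no other agent, and the untreated cells received neither drug. For comparison, the 24 arrays of formoterol and untreated cells at 1, 2 and 6 h and the 8 arrays of budesonide at 100 nM, alone or with 10 nM formoterol, at 18 h were used. The labels call the 4 arrays of a group independent determinations and do not say more of their source, and the tests therefore rest on the spread between these samples, which may be technical. Values are log2 expression of 18132 genes, 1 probe set a gene, and changes are log2 differences ± SE from limma with 4 arrays a group. A gene is said to have risen or fallen, or to be called, where its Benjamini-Hochberg adjusted p over all genes was under 0.05.

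The receptor for beta-agonists couples to a stimulatory G protein that activates adenylyl cyclase, and the cyclic AMP formed releases the catalytic subunits of protein kinase A. The kinase phosphorylates the transcription factor CREB, which binds the sequence TGACGTCA or its core TGACG and switches on immediate early genes, among them the NR4A nuclear receptors. Cyclic AMP also induces the phosphodiesterases that degrade it, a feedback known in airway cells, and receptors exposed to an agonist for long are desensitised.

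At 18 h, 201 genes were called (1.11% of those tested). Of these 85 had risen (0.469%) and 116 had fallen (0.64%), and 14 had changed at least 2-fold (0.0772%). All 4 arrays of one group lay above all 4 of the other for 167 of the 201 called genes, and for 4.48% of all genes. The median change was 0.55 among the risen genes and −0.50 among the fallen ones, against 0.02 over all genes. The highest changes included LINC00473, PDE7B, SMOC1, LPL and IL11, and the lowest SERPINB7, FGF5 and HDAC9.

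The residual SD of formoterol replicate 4 was 0.270, the highest of the 64 arrays (0.140 to 0.270). In that array the 7661 genes with a mean below 4.9, the median of all probe set values, read 0.21 above the untreated mean (median over genes) and the other 10471 genes −0.05, while the dim genes of the other 3 formoterol arrays lay between −0.03 and 0.05. Without this array 93 genes were called, 89 of them among the 201. The count was 121 without untreated replicate 2, 117 without formoterol replicate 2 and 348 without formoterol replicate 1. The excess of 3' over 5' beta-actin signal, which grows with RNA breakdown, was highest in replicate 1 of both groups (2.10 untreated, 1.90 formoterol). None of the marker genes of bronchial epithelium (9 measured), leukocytes (11), endothelial cells (10) or fibroblasts and smooth muscle (12) was called at 18 h. Over all genes the share called was 1.11%. Of the epithelial markers the keratins KRT18 (11.06 ± 0.23 in untreated cells, SD, n = 4) and KRT8 (9.16 ± 0.30) stood high, while EPCAM, an adhesion molecule that defines epithelium, lay at 2.49 ± 0.19, under the lower quartile of all values (3.02). In untreated cells 4 of the 9 epithelial markers reached the median of all values. The mean over the 9 was 5.65 to 5.82 in untreated and 5.74 to 5.89 in formoterol arrays. The mean over the leukocyte markers was 3.07 to 3.24 in untreated and 3.21 to 3.41 in formoterol arrays, with the leukocyte antigen PTPRC near 2.01 in untreated cells. The mean over the endothelial markers was 3.63 to 3.97 and 3.82 to 4.08, and that over the fibroblast and smooth muscle markers 5.04 to 5.24 and 5.14 to 5.26. The part of these levels in the results was not tested. In cultures, fewer cells of a kind and less RNA per cell cannot be told apart.

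**Figure D1:**
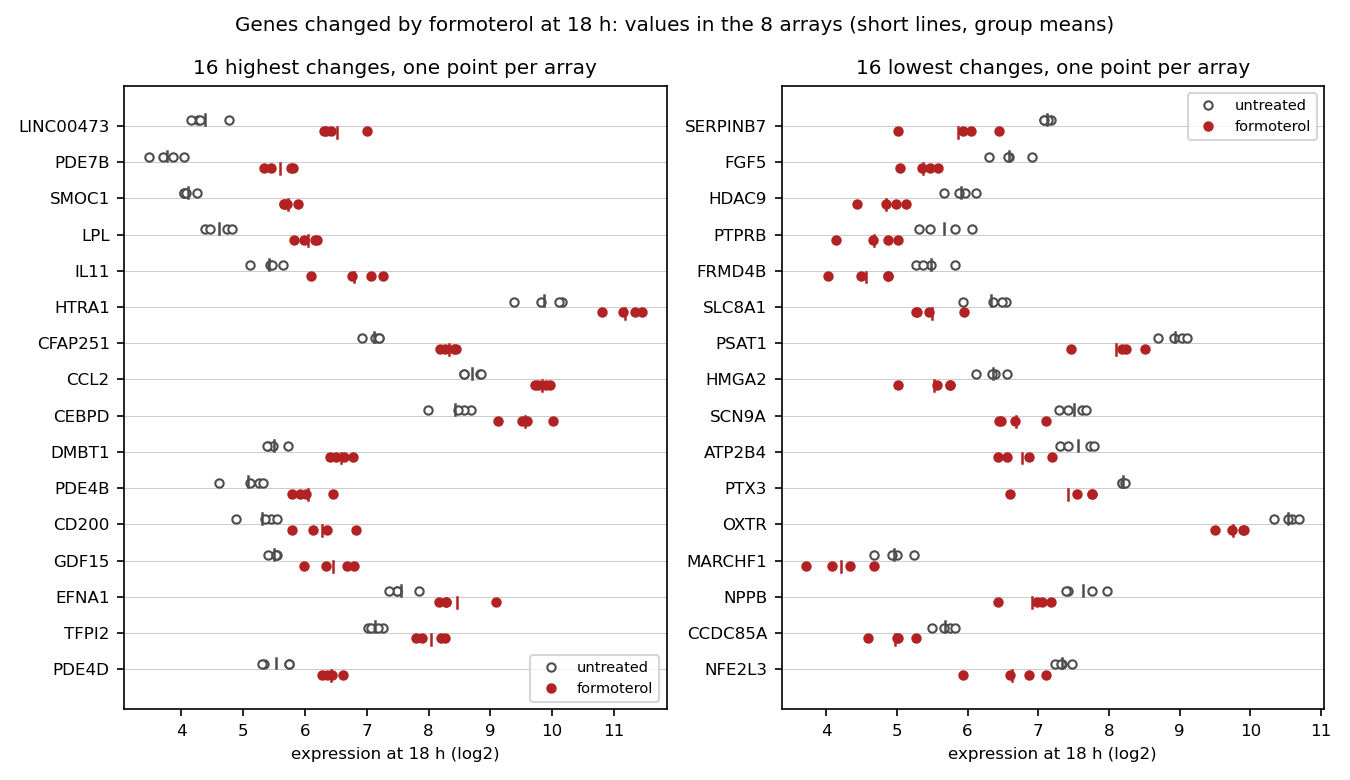
Log2 expression at 18 h of the 16 highest (left) and 16 lowest (right) called changes, 1 point per array, with open grey points for untreated and red points for formoterol arrays and short lines at the group means. The groups do not overlap for any of the 16 risen genes, and formoterol replicate 4 is the lowest array for SERPINB7 (5.01) and PTX3 (6.60).

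The highest change was that of LINC00473, a long noncoding RNA known as a CREB target. It read 4.27, 4.16, 4.30 and 4.77 in the untreated arrays and 6.31, 6.35, 6.43 and 7.01 in the formoterol arrays, replicates 1 to 4 in order. All formoterol arrays lay above all untreated ones, and replicate 4 was the highest in both groups. The change was 2.15 ± 0.20 (adjusted p = 1.02e-11), 4.44-fold.

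Among the cyclic nucleotide phosphodiesterases, which degrade cyclic AMP, cyclic GMP or both, 3 of 17 measured genes had risen and none had fallen, with a median change over the 17 of 0.01 against 0.02 over all genes. Of all genes 0.469% had risen. PDE7B, a phosphodiesterase specific for cyclic AMP, read 4.04, 3.86, 3.71 and 3.48 without and 5.81, 5.44, 5.33 and 5.78 with formoterol. Its change was 1.82 ± 0.17 (adjusted p = 9.55e-12). The other risen members were of the PDE4 family, the target of roflumilast. PDE4D read 5.73, 5.34, 5.30 and 5.74 against 6.62, 6.43, 6.28 and 6.36, a change of 0.89 ± 0.14 (adjusted p = 1.74e-05). PDE4B read 5.10, 5.25, 4.60 and 5.33 against 6.45, 6.01, 5.79 and 5.92, a change of 0.97 ± 0.22 (adjusted p = 0.00863). The groups did not overlap for these genes, and PDE4B missed the threshold without untreated replicate 3 (0.81), its lowest untreated array. The paralogue PDE4A differed by 0.01 ± 0.14, and PDE3A and PDE8A, called higher at 6 h (0.73 and 0.48), by −0.04 ± 0.15 and 0.14 ± 0.07, neither called.

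The phosphodiesterases belong in part to a list of 28 measured genes known to be induced by cyclic AMP and CREB. This list, like the others used here, was chosen with earlier results of these data known, so its counts describe and do not test. Of the 28, 7 were called at 18 h, all higher, namely LINC00473, PDE7B, PDE4B, PDE4D, CD200, NR4A3 and DUSP1. Over all genes 0.469% had risen. A change above 0 was seen in 26 of the 28, with a median of 0.30 against 0.02 over all genes. The same 7 were called without formoterol replicate 4. At 1, 2 and 6 h, 15, 18 and 15 of the 28 had risen, with medians of 0.79, 1.41 and 0.53. Over all genes 1.02%, 2.31% and 2.76% had risen at these times. NR4A3, an orphan nuclear receptor, read 3.94, 4.14, 3.85 and 4.34 without and 4.98, 4.54, 4.93 and 5.30 with formoterol. Its change of 0.87 ± 0.16 (adjusted p = 0.00034) came after 6.28 ± 0.16 at 2 h. The related receptors were not called, with −0.10 ± 0.31 for NR4A1 and 0.42 ± 0.30 for NR4A2. DUSP1, a phosphatase that inactivates MAP kinases, read 8.54, 8.47, 8.43 and 8.83 against 9.12, 9.41, 8.96 and 9.34, a change of 0.64 ± 0.09 (adjusted p = 4.25e-06). CD200, a surface glycoprotein that restrains myeloid cells, read 5.45, 5.54, 4.89 and 5.35 against 6.36, 6.82, 6.12 and 5.79, a change of 0.97 ± 0.18 (adjusted p = 0.000923). The groups did not overlap for NR4A3, DUSP1 or CD200.

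The promoters of 5 risen genes follow, 4 from this list and SMOC1, which is not on it. The 5 were picked by hand and all hold the motif. They do not represent the risen genes, whose share is given below. Their promoters are shown because CREB is the factor that cyclic AMP is best known to activate. They are RefSeq sequences on GRCh38.p14, 5' to 3' on the gene's strand, from 250 bases before to 50 after the first listed start. Capitals mark TGACG or, for the other strand, CGTCA, which overlap in the full site TGACGTCA. PDE7B lies at chr6:135851451-135851750 (plus strand), DUSP1 at chr5:172771146-172771445 (minus), LINC00473 at chr6:165987990-165988289 (minus), NR4A3 at chr9:99821635-99821934 (plus) and SMOC1, a secreted calcium-binding matrix protein, at chr14:69879166-69879465 (plus).
PDE7B: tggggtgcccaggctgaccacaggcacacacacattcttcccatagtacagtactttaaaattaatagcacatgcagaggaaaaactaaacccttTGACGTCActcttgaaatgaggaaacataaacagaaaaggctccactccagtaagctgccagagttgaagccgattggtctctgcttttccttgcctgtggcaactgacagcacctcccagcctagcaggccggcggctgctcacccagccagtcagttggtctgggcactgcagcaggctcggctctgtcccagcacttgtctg
DUSP1: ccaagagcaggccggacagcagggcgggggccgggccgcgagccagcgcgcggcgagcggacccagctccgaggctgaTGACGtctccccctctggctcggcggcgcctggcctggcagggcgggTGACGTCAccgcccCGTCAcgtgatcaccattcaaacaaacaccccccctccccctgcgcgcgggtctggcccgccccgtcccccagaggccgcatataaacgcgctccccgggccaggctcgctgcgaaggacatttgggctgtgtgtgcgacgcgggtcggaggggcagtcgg
LINC00473: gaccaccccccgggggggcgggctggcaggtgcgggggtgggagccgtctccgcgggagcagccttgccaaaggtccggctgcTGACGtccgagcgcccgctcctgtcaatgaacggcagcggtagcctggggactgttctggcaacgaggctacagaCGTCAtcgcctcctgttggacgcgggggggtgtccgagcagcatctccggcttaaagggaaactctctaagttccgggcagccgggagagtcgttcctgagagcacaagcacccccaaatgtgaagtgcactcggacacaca
NR4A3: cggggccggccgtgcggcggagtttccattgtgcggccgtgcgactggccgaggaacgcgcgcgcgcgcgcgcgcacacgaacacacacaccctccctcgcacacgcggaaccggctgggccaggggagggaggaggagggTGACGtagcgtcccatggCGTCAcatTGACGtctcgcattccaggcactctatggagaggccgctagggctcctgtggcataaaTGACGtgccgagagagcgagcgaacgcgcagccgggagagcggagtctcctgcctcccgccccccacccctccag
SMOC1: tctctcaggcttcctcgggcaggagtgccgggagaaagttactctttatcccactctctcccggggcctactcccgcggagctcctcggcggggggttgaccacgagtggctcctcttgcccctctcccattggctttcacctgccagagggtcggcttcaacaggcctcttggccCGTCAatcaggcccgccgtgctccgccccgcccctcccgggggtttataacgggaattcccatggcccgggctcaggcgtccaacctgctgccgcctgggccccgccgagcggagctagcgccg
DUSP1 and NR4A3 hold 4 copies of the core motif in this window, counted on both strands, LINC00473 and PDE7B 2, and SMOC1 1. A window was at hand for 14425 of the 18132 genes, and 29.7% of them held TGACG on either strand. Of the 69 risen genes with a window at 18 h, 20 did (29.0%), and of the 91 fallen genes 21 did (23.1%). The share was 40.1% among the genes risen at 1 h, 35.9% at 2 h and 30.7% at 6 h. The full site was held by 2.66% of all windows and by 4 of the 69, those of PDE7B, DUSP1, AVPI1 and CREB3L2. A match is a description of these letters and no evidence of binding.

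SMOC1 read 4.26, 4.04, 4.05 and 4.08 without and 5.72, 5.89, 5.65 and 5.66 with formoterol. Its spread within a group was small beside its change of 1.62 ± 0.16 (adjusted p = 2.71e-10). LPL, the lipase that frees fatty acids from lipoproteins, read 4.74, 4.39, 4.47 and 4.82 against 5.99, 6.19, 5.83 and 6.16, a change of 1.44 ± 0.18 (adjusted p = 1.05e-07). HTRA1, a secreted serine protease, read 10.16, 9.81, 9.39 and 10.12 against 11.15, 11.45, 10.80 and 11.33, a change of 1.32 ± 0.19 (adjusted p = 2.56e-06). HTRA1 stood far above the median of all values in both groups, whereas SMOC1 and LPL lay under it in untreated cells. TFPI2, an inhibitor of serine proteases, rose by 0.91 ± 0.12, DMBT1, a scavenger receptor protein of mucosal secretions, by 1.08 ± 0.16, and EFNA1, a ligand of Eph receptors, by 0.91 ± 0.19, which missed the threshold without formoterol replicate 4 (0.70). Of 40 measured genes of the extracellular matrix and its remodelling SMOC1 alone was called, where 1.11% of all genes were, and the list's median change was −0.07. The collagenase MMP1 had the lowest change of that list, −1.34 ± 0.38, and missed the threshold (adjusted p = 0.0689).

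Of 37 cytokines, chemokines and growth factors, 3 had risen and 2 had fallen, and the median change was 0.04. Over all genes 0.469% had risen and 0.64% had fallen. IL11, a cytokine of the interleukin-6 family, read 5.44, 5.46, 5.12 and 5.65 without and 6.76, 6.10, 7.07 and 7.27 with formoterol, a change of 1.38 ± 0.20 (adjusted p = 5.66e-06). CCL2, a monocyte chemoattractant, read 8.58, 8.83, 8.58 and 8.85 against 9.90, 9.96, 9.77 and 9.72, a change of 1.13 ± 0.16 (adjusted p = 1.87e-06). GDF15, a stress-induced member of the TGF-beta family, read 5.55, 5.53, 5.40 and 5.53 against 6.35, 6.68, 5.99 and 6.79, a change of 0.95 ± 0.15 (adjusted p = 1.44e-05). The groups did not overlap for any of the 3, and the formoterol arrays spread more widely for IL11 and GDF15 than the untreated ones. The fallen members were FGF5, described below, and CXCL8, the neutrophil chemoattractant interleukin-8, which fell by 0.70 ± 0.18 (adjusted p = 0.0324). CXCL8 missed the threshold in 6 of the 8 fits that left out 1 array at 18 h (−0.71 to −0.60). IL6, which had risen by 4.04 ± 0.19 at 1 h, differed by 0.10 ± 0.19.

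CEBPD, a factor of acute phase responses, read 8.69, 8.58, 8.0 and 8.47 without and 9.59, 10.01, 9.12 and 9.51 with formoterol, a change of 1.12 ± 0.18 (adjusted p = 5.33e-05). The arrays of replicate 3 were the lowest in both groups. CFAP251, a protein of motile cilia, had one of the tightest changes, with 6.93, 7.14, 7.21 and 7.19 against 8.19, 8.27, 8.41 and 8.44 and a difference of 1.21 ± 0.10 (adjusted p = 6.71e-13). Of 29 genes known to be induced by glucocorticoids, 4 had risen, which were CEBPD, DUSP1, the mTORC1 inhibitor DDIT4 (0.80 ± 0.15) and the transcription factor KLF9 (0.56 ± 0.14), and TNFAIP3 had fallen. The median over the 29 was 0.07, and over all genes 0.469% had risen and 0.64% had fallen. KLF9 missed the threshold in 5 of the 8 fits without 1 array (0.41 to 0.56). With budesonide alone, compared with the same untreated arrays, the values were 1.76 for DUSP1, 2.01 for DDIT4 and 2.43 for KLF9.

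Of 31 measured genes of the machinery that makes and reads cyclic AMP, adrenoceptors included, none had risen, 2 had fallen, and the median was −0.03. Over all genes 1.11% were called and 0.64% had fallen. The beta1-adrenoceptor gene ADRB1 fell by 0.47 ± 0.13 (adjusted p = 0.0485) and PRKAR2B, a regulatory subunit of protein kinase A, by 0.49 ± 0.12 (adjusted p = 0.0151). ADRB1 missed the threshold in 7 of the 8 fits without 1 array (−0.48 to −0.34) and PRKAR2B in 4 (−0.46 to −0.41). None of 9 measured genes of the CREB family, its coactivators and the SIK kinases was called, and CREM, whose short product ICER represses cyclic AMP targets, differed by −0.02 ± 0.11 after 0.83 ± 0.11 at 2 h. Of 16 regulators of G-protein signalling RGS7 fell by 0.61 ± 0.12 (adjusted p = 0.0016), which missed the threshold without formoterol replicate 4 (−0.46). RGS2, which limits signalling by Gq-coupled receptors, differed by 0.37 ± 0.11 (adjusted p = 0.0638) after 3.16 ± 0.11 at 1 h.

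The lowest change was that of SERPINB7, an intracellular serpin of epithelial cells. It read 7.08, 7.18, 7.14 and 7.08 without and 6.05, 5.94, 6.45 and 5.01 with formoterol, a change of −1.26 ± 0.25 (adjusted p = 0.00167). Formoterol replicate 4 lay below the other arrays, and without it the change was −0.97 and missed the threshold. No other of 17 measured serpins was called, where 1.11% of all genes were. FGF5, a fibroblast growth factor, read 6.30, 6.91, 6.58 and 6.57 against 5.59, 5.35, 5.46 and 5.05, a change of −1.23 ± 0.17 (adjusted p = 1.05e-06). HDAC9, a class IIa histone deacetylase, read 5.96, 6.12, 5.67 and 5.88 against 5.13, 4.99, 4.85 and 4.43, a change of −1.05 ± 0.14 (adjusted p = 3.56e-07). For both genes every formoterol array lay below every untreated one. PTPRR, a tyrosine phosphatase chosen here after its value was seen, was the remaining gene that fell at least 2-fold (−1.01 ± 0.20).

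OXTR, the oxytocin receptor, read 10.59, 10.69, 10.53 and 10.34 without and 9.90, 9.91, 9.73 and 9.49 with formoterol, a change of −0.78 ± 0.16 (adjusted p = 0.00197). SCN9A, a voltage-gated sodium channel, read 7.42, 7.63, 7.29 and 7.67 against 7.11, 6.48, 6.68 and 6.45, a change of −0.83 ± 0.14 (adjusted p = 8.94e-05). The groups did not overlap for these, whereas they did for the sodium-calcium exchanger SLC8A1 (−0.84 ± 0.17). The receptor tyrosine phosphatase PTPRB fell by 0.99 ± 0.18 and the calcium pump ATP2B4 by 0.79 ± 0.21. Of 28 potassium and calcium channel genes the cation channel TRPC6 fell by 0.59 ± 0.09 (adjusted p = 3.04e-05) and no other was called. Over all genes the share called was 1.11%. ATP2B4 missed the threshold in 6 of the 8 fits without 1 array (−0.84 to −0.68).

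PTX3, a soluble pattern recognition protein, read 8.19, 8.19, 8.19 and 8.23 without and 7.77, 7.76, 7.55 and 6.60 with formoterol, a change of −0.78 ± 0.16 (adjusted p = 0.00177). NPPB, which encodes B-type natriuretic peptide, read 7.42, 7.97, 7.76 and 7.39 against 7.05, 6.43, 7.18 and 6.98, a change of −0.73 ± 0.16 (adjusted p = 0.0078). Each formoterol array lay below each untreated one for both. The architectural chromatin protein HMGA2 fell by 0.83 ± 0.18, the transcription factor NFE2L3 by 0.71 ± 0.13, FRMD4B by 0.92 ± 0.23, the ubiquitin ligase MARCHF1 by 0.76 ± 0.20 and CCDC85A by 0.72 ± 0.13. PTX3 (−0.51) and HMGA2 (−0.67) missed the threshold without formoterol replicate 4, and NPPB without untreated or formoterol replicate 2 (−0.61 to −0.57). FRMD4B missed it in 4 of the 8 fits without 1 array (−0.93 to −0.74) and MARCHF1 in 6 (−0.80 to −0.59). Of 24 immediate early transcription factors JUN fell by 0.49 ± 0.10 (adjusted p = 0.00135), NR4A3 had risen, and no other member was called. Over all genes the share called was 1.11%. Several probe sets were present for 28 of the 32 genes with the highest and lowest changes, and all probe sets of a gene ran one way for 23 of the 28.

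The history of the 201 genes was read from the earlier arrays, which share none with those at 18 h. At 1, 2 and 6 h, 243 (1.34%), 834 (4.6%) and 873 (4.81%) genes were called. With the replicate number as a block over all arrays, 352 were called at 1 h and 1200 at 2 h. The counts here and below rest on the fit without a block. Of all genes 1.02%, 2.31% and 2.76% had risen at these times and 0.32%, 2.29% and 2.06% had fallen. Of the 85 genes risen at 18 h, 28, 44 and 50 had risen at 1, 2 and 6 h, 52 at any earlier time, and 32 were called at none. Of the 116 fallen genes, 1, 10 and 54 had fallen at 1, 2 and 6 h and 60 were called at no earlier time. The risen genes had median changes of 0.11, 0.41 and 0.68 at 1, 2 and 6 h and the fallen ones 0.00, −0.04 and −0.33. Without formoterol replicate 4, 7 of 48 risen and 16 of 45 fallen genes were called at no earlier time. Across the 201 genes the changes at 6 h and 18 h had a Pearson correlation of 0.855, and across all 18132 genes of 0.275, where genes are not independent replicates.

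**Figure D2:**
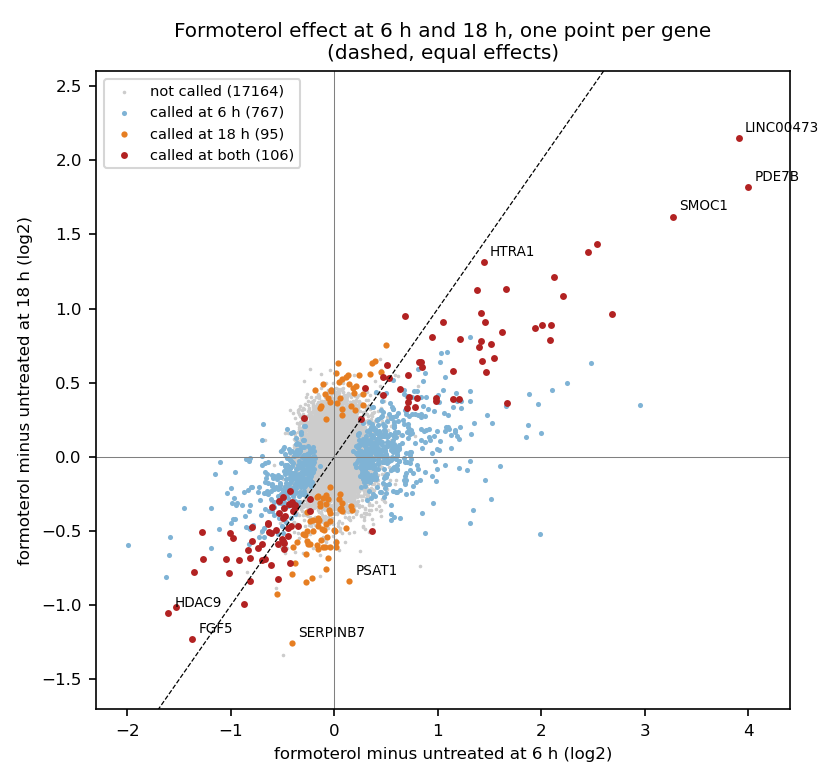
Formoterol minus untreated (log2) at 6 h (horizontal) and 18 h (vertical), 1 point per gene, with a dashed line of equal effects. The 106 genes called at both times are red, the 767 called at 6 h and not 18 h blue and the 95 called at 18 h and not 6 h orange, and LINC00473, PDE7B and SMOC1 lie far under the dashed line.

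Read forwards, a small share of the earlier calls was called again. Of the 185, 419 and 500 genes risen at 1, 2 and 6 h, 28 (15.1%), 44 (10.5%) and 50 (10.0%) had also risen at 18 h, where 0.469% of all genes had risen. Of the 58, 415 and 373 fallen genes, 1 (1.72%), 10 (2.41%) and 54 (14.5%) had fallen again, against 0.64% of all genes. Without formoterol replicate 4, 41 of 520 risen and 29 of 392 fallen genes at 6 h were called again. Of the genes risen at 1, 2 and 6 h, 125, 261 and 338 were above 0 at 18 h, as were 10309 of all 18132 genes. Of the fallen genes, 29, 243 and 321 were below 0. The median at 18 h was 0.08 for the 500 genes risen at 6 h and −0.17 for the 373 fallen ones. A gene not called again is not shown to have lost its change. Among the 84 genes at least 2-fold higher at 6 h the median change went from 1.35 to 0.38, 74 were above 0 at 18 h and 30 were called. Among the 20 at least 2-fold lower the median went from −1.27 to −0.60, all 20 were below 0 and 9 were called. As these genes were chosen by their value at 6 h, their medians there lean away from 0.

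Whether an effect differed between the times was tested as the difference of the 2 changes. From 6 h to 18 h, 254 genes were called (1.4%), 51 with a higher (0.281%) and 203 with a lower change at 18 h (1.12%). The change at 18 h was the smaller one in 170 of the 500 genes risen at 6 h and in 37 of the 373 fallen ones, and the larger one in none of either. These genes were chosen by their change in the 6 h arrays, which also enter the difference. The choice itself therefore leans towards a smaller change at 18 h. From 2 h, 452 genes were called (2.49%), 144 higher (0.794%) and 308 lower (1.7%). From 1 h, 203 were called (1.12%), 44 higher (0.243%) and 159 lower (0.877%). For the genes named here a smaller change at 18 h than at 6 h was called for PDE7B (by −2.18 ± 0.23, from 4.0), LINC00473 (−1.76 ± 0.28, from 3.91), CD200 (−1.72 ± 0.26, from 2.69) and SMOC1 (−1.65 ± 0.23, from 3.27). It was also called for DMBT1 (−1.13 ± 0.23), PDE4D (−1.11 ± 0.19), LPL (−1.10 ± 0.25), IL11 (−1.06 ± 0.29) and CFAP251 (−0.91 ± 0.14). IL11 missed the threshold in 10 of 40 fits that each left out 1 array (−1.09 to −0.83). The difference from 6 h was not called for HTRA1 (−0.13 ± 0.26), GDF15 (0.27 ± 0.21), CEBPD (−0.26 ± 0.26), CCL2 (−0.53 ± 0.22), FGF5 (0.15 ± 0.23), HDAC9 (0.55 ± 0.19), OXTR (0.58 ± 0.22) or PTX3 (0.23 ± 0.22). A difference that was not called is not shown to be 0.

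**Figure D3:**
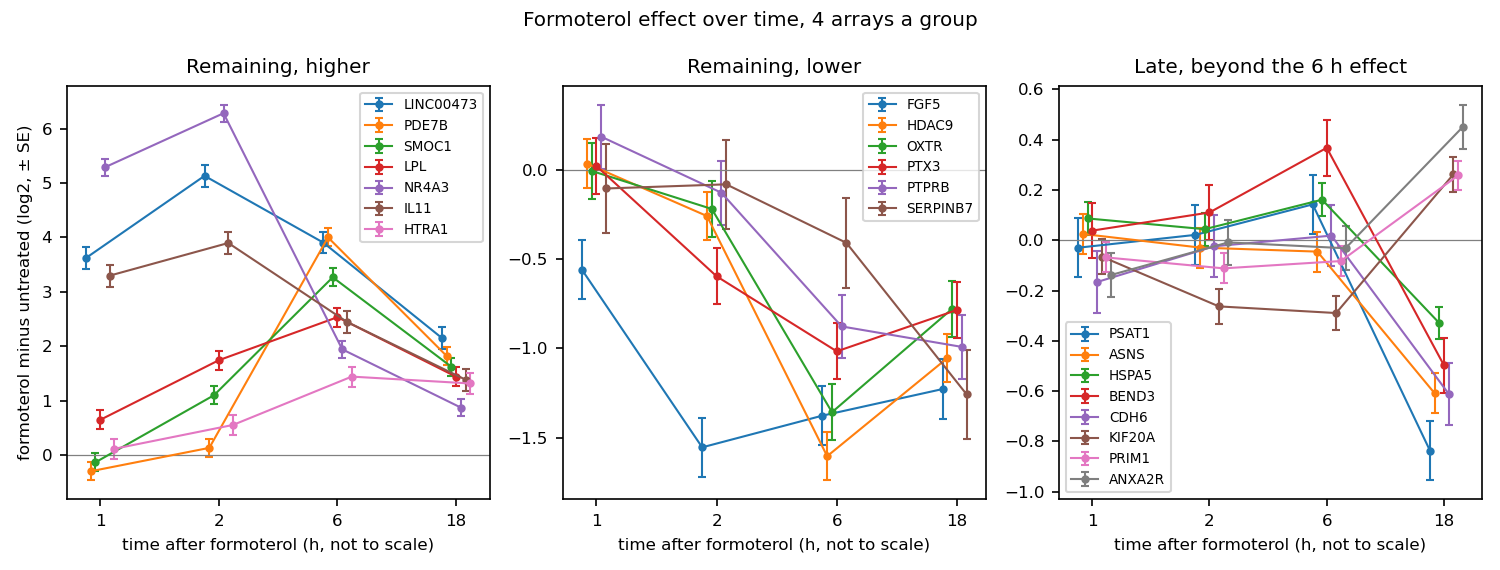
Formoterol minus untreated (log2, ± SE) at 1, 2, 6 and 18 h for risen genes (left), fallen genes (middle) and genes whose change at 18 h was beyond that at 6 h (right), 4 arrays a group, with the times evenly spaced. NR4A3 falls from 6.28 at 2 h to 0.87 at 18 h, PDE7B is highest at 6 h (4.0), and PSAT1 leaves 0 only at 18 h (−0.84).

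The time courses of the leading genes differed in where they were highest. LINC00473, NR4A3, IL11 and CD200 had changes of 2.67 to 5.29 at 1 h, whereas PDE7B (−0.30 ± 0.17) and SMOC1 (−0.14 ± 0.16) were not called at 1 h. PDE7B was not called at 2 h either (0.13 ± 0.17), and its change at 18 h exceeded those at 1 h (by 2.12, adjusted p = 1.18e-09) and 2 h (by 1.69, adjusted p = 3.75e-07). The change of HDAC9 at 18 h was lower than at 1 h (by −1.09) and 2 h (by −0.79). Of the 8 genes with the highest changes at 1 h, 3 were called at 18 h, which were NR4A3, IL11 and LINC00473. The others were the kinase SGK1 (3.60 at 1 h and 0.28 ± 0.12 at 18 h), the chemokine CXCL2 (3.51 and 0.22 ± 0.20), NR4A1, NR4A2 and IL6. Of the fallen genes at 1 h JUN alone was called again, and EGR1 (−2.78 and −0.04 ± 0.19), FOSL1 (−0.91 and −0.26 ± 0.17) and TXNIP (−1.71 and 0.30 ± 0.16) were not. At 6 h CRISPLD2, a secreted protein, had risen by 2.95 and TM4SF1, a membrane protein, by 2.48, and at 18 h they stood at 0.35 ± 0.27 and 0.63 ± 0.20, not called. The neuron navigator NAV3 went from −1.99 to −0.60 ± 0.20, not called at 18 h, and the difference was called (1.39, adjusted p = 0.0021).

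A few genes changed late. For 6 risen and 8 fallen genes the change at 18 h was called and also called beyond that at 6 h. Without formoterol replicate 4 this held for none of 48 risen and 3 of 45 fallen genes. The fallen ones included enzymes of amino acid synthesis and an endoplasmic reticulum chaperone. PSAT1, an enzyme of serine synthesis, read 9.03, 9.11, 8.69 and 8.92 without and 8.51, 8.19, 8.24 and 7.47 with formoterol, a change of −0.84 ± 0.12 (adjusted p = 2.73e-06) after 0.14 ± 0.12 at 6 h. ASNS, asparagine synthetase, read 7.95, 8.11, 8.10 and 8.01 against 7.57, 7.45, 7.44 and 7.27, a change of −0.61 ± 0.08 (adjusted p = 6.14e-07). HSPA5, the chaperone BiP, read 11.70, 11.61, 11.64 and 11.67 against 11.52, 11.28, 11.39 and 11.10, a change of −0.33 ± 0.07 (adjusted p = 0.00153). The groups did not overlap for these 3 genes, and HSPA5 missed the threshold without formoterol replicate 4 (−0.26). Of 38 genes of the amino acid response driven by ATF4, 3 had fallen (PSAT1, ASNS and STC2), DDIT4 had risen, and the median was −0.06. Over all genes 0.64% had fallen and 0.469% had risen. At 6 h, 5 of these 38 had risen and 2 had fallen, against 2.76% and 2.06% of all genes. Of 25 endoplasmic reticulum chaperone and unfolded protein genes HSPA5 had fallen and CREB3L2, a membrane-bound transcription factor, had risen (0.33 ± 0.06), and the median was −0.02.

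The other late fallen genes were CDH6, a cadherin (−0.61 ± 0.12), BEND3 (−0.50 ± 0.11), B3GALNT2 (−0.36 ± 0.09), C21orf91 (−0.31 ± 0.07) and the receptor phosphatase PTPRM (−0.25 ± 0.06). The late risen genes were LINC03008 (0.45 ± 0.11), ANXA2R (0.45 ± 0.09), TROAP, a protein of the mitotic spindle (0.34 ± 0.09), DZIP3 (0.33 ± 0.09), the mitotic kinesin KIF20A (0.26 ± 0.07) and the primase subunit PRIM1 (0.26 ± 0.06). All were smaller than the change of PSAT1, and the call at 18 h or the difference from 6 h was lost in at least 1 fit without 1 array for all of them. For KIF20A the call at 18 h was lost in 6 of 8 such fits (0.24 to 0.27), for DZIP3 in 7 (0.29 to 0.35), for TROAP in 5 (0.30 to 0.35) and for BEND3 in 2 (−0.44 to −0.34).

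Genes called at 18 h against the direction of an earlier call numbered 4, and none without formoterol replicate 4. KIF20A had fallen at 2 h (−0.26) and 6 h (−0.29) and BEND3 had risen at 6 h (0.37). TNFAIP3, an inhibitor of NF-kappaB, had risen at 1 h (0.76) and 2 h (0.49) and fell by 0.60 ± 0.15 at 18 h, and STC2 had risen at 2 h (0.36) and fell by 0.41 ± 0.11 at 18 h. TNFAIP3 missed the threshold in 4 of the 8 fits without 1 array (−0.60 to −0.54) and STC2 in all 8 (−0.46 to −0.35).

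Of 18 measured genes of cholesterol synthesis and uptake, 12 had fallen at 6 h and none was called at 18 h, where the median was −0.04. Over all genes 2.06% had fallen at 6 h and 1.11% were called at 18 h. A higher change at 18 h than at 6 h was called for 3 of the 18, the mevalonate kinase MVK (0.63), NSDHL (0.56) and MSMO1 (0.40). Over all genes a higher change was called for 0.281% and a lower one for 1.12%. Of 32 cell division genes, 12 had fallen at 2 h, against 2.29% of all genes. KIF20A was the one called at 18 h, with 22 of the 32 above 0 and a median of 0.08. The change at 18 h was called higher than at 6 h for KIF20A, the cyclins CCNB1 and CCNB2 and the anaphase activator CDC20, and lower for RRM2. Over all genes these shares were 0.281% and 1.12%. CCNB1 missed the threshold in 3 of 40 fits without 1 array (0.31 to 0.35). Of 20 cell cycle brakes and G1 cyclins CDKN2A (−0.20 ± 0.05) and GADD45A (−0.33 ± 0.09) had fallen, with losses in 5 (−0.21 to −0.14) and 6 (−0.35 to −0.29) of the 8 fits without 1 array. CDKN2A also missed the threshold with the mean of all its probe sets (−0.11). Of 28 interferon-stimulated genes the exonuclease ISG20 alone had risen (0.79 ± 0.13), and the mean over that list varied between 5.46 and 6.92 among untreated arrays. Of 18 NF-kappaB genes TNFAIP3 and CXCL8 had fallen, and of 16 MAP kinase phosphatases and feedback inhibitors DUSP1 had risen and DUSP14 had fallen (−0.30 ± 0.07, lost in 4 of the 8 fits at −0.28 to −0.24). No member was called at 18 h among the cytosolic heat shock (19), fatty acid synthesis (11), actin and SRF target (22), clock (17), metallothionein (10) or epithelial junction and keratin genes (22). With 1.11% of all genes called, lists of these sizes would hold few or no calls. The glucocorticoid receptor gene NR3C1 differed by 0.04 ± 0.08.

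**Figure D4:**
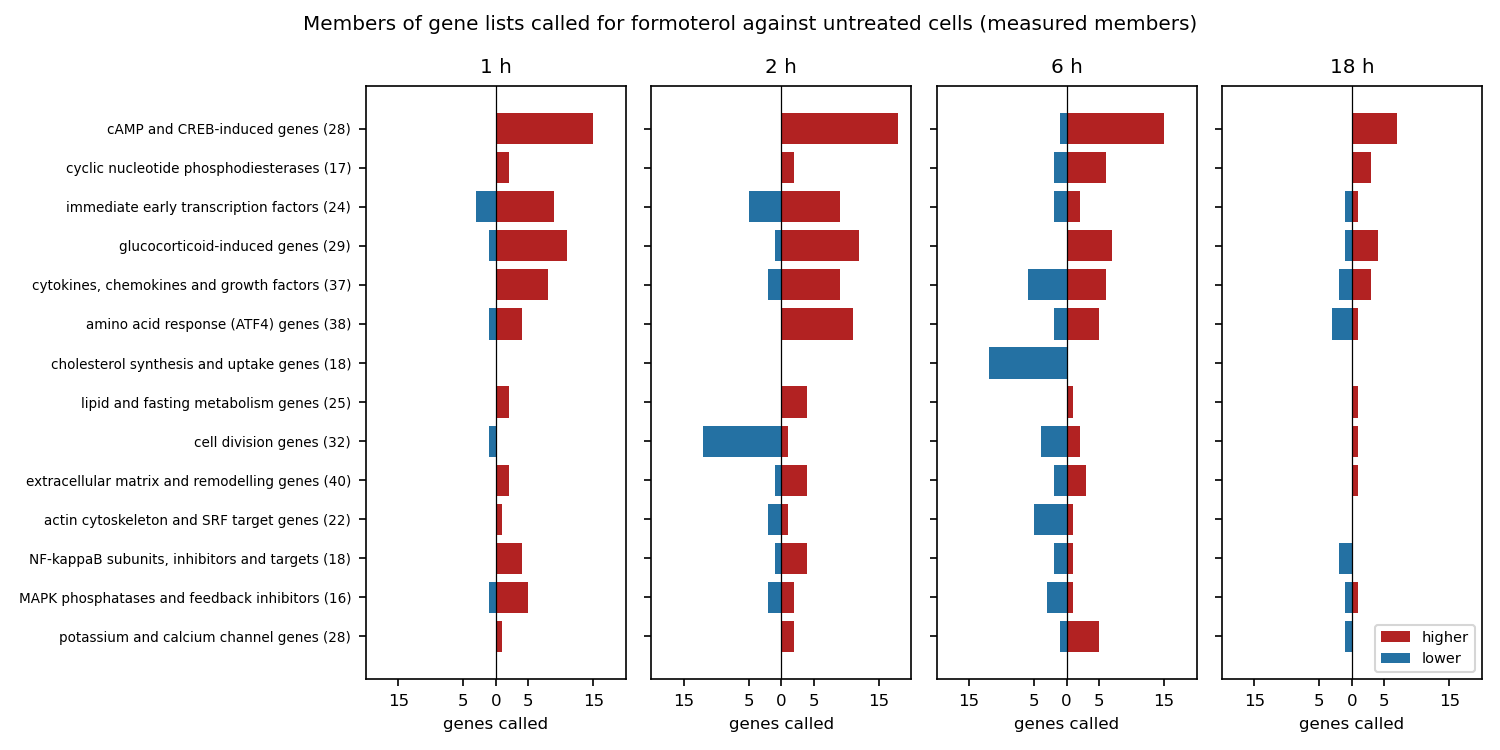
Number of members called higher (red, to the right) and lower (blue, to the left) for formoterol against untreated cells in 14 gene lists at 1, 2, 6 and 18 h, with the number measured in brackets. The 14 were picked by these calls from the 26 lists without cell type markers. Each had at least 4 members called in 1 direction at 1 or more of these times. The cAMP and CREB-induced list has 15, 18, 15 and 7 risen genes at the 4 times, and the cholesterol list has 12 fallen genes at 6 h and none at 18 h. Over all genes 1.02%, 2.31%, 2.76% and 0.469% had risen at the 4 times, and 2.06% had fallen at 6 h.

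The same agonist at the same time was also measured over budesonide, in 8 arrays that share none with the comparison above. Adding formoterol to budesonide changed 118 genes (0.651%), 55 higher (0.303%) and 63 lower (0.347%). Same-numbered arrays among these 8 deviated together, with correlations of 0.19 to 0.33 in every pair. With the replicate number as a block common to all 64 arrays, 359 were called. A block within each time gave 665, and a block in a fit of these 8 arrays alone gave 1306. The unblocked count was 76 without budesonide replicate 2 and 77 without budesonide replicate 4. Of the 85 genes risen with formoterol alone, 64 were above 0 over budesonide, with a median of 0.13 against 0.55. Of the 85, 6 had risen (17 with the block over all arrays). Of the 116 fallen genes, 90 were below 0, with a median of −0.12 against −0.50, and 13 had fallen (23 with the block over all arrays). Such counts were not made with the other blocks. The first of these medians in each pair comes from arrays not used to choose the genes, and the second from those that chose them. Without the block the fallen gene MAP3K7CL, named here after its value was seen, alone was called the other way over budesonide (0.38, against −0.51 with formoterol alone). With the block over all arrays, 1 of the 85 risen and 3 of the 116 fallen genes were called the other way.

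The difference between the formoterol effects with and without budesonide was tested as an interaction, which called 50 genes (0.276%), 28 higher (0.154%) and 22 lower (0.121%), and 79 without formoterol replicate 1. The effect was smaller over budesonide for 16 of the 85 risen and 13 of the 116 fallen genes and larger for none. These genes were chosen by their change in arrays that also enter the interaction, so the choice itself leans towards a smaller effect over budesonide. Without formoterol replicate 4 it was smaller for 7 of 48 risen and 5 of 45 fallen genes. The interaction was −1.67 ± 0.28 for LINC00473 (adjusted p = 0.000402), whose change over budesonide was 0.48 ± 0.20. For PDE7B it was −1.42 ± 0.23 (adjusted p = 0.000335), for SMOC1 −1.44 ± 0.23 (adjusted p = 0.000264), for IL11 −1.52 ± 0.29 (adjusted p = 0.00196) and for LPL −1.05 ± 0.25 (adjusted p = 0.0351). None of these 5 was called over budesonide, where they stood between −0.14 and 0.48. NR4A3 (−0.99 ± 0.22) and DUSP1 (−0.59 ± 0.13) also had smaller changes over budesonide, and the interaction of LPL missed the threshold in 10 and that of NR4A3, DUSP1 and NPPB in 4 of 40 fits without 1 array (−1.06 to −0.98, −0.94 to −0.87, −0.55 to −0.52 and 0.88 to 0.96).

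Among the fallen genes ASNS fell by 0.61 with formoterol alone and differed by 0.17 ± 0.08 over budesonide (interaction 0.77 ± 0.11, adjusted p = 2.29e-05). TRPC6 (0.71 ± 0.13, adjusted p = 0.00162) and NPPB (1.04 ± 0.23, adjusted p = 0.0163) had interactions of the same sign. Of the 16 genes with the highest changes CFAP251 alone was called over budesonide without the block, at 1.21 ± 0.10 alone and 1.14 ± 0.10 over budesonide (adjusted p = 3.71e-12), with an interaction of −0.07 ± 0.14. HDAC9 was called in both settings, at −1.05 ± 0.14 and −0.54 ± 0.14 (adjusted p = 0.0312, missed in 6 of 40 fits without 1 array at −0.55 to −0.47). With the block over all arrays CCL2 (0.59), CEBPD (0.43), HTRA1 (0.34), PTX3 (−0.54) and SLC8A1 (−0.49) were called over budesonide too. RGS2, not called with formoterol alone, rose by 1.07 ± 0.11 over budesonide (interaction 0.69, adjusted p = 0.0132, missed in 3 of 40 fits without 1 array at 0.61 to 0.65).

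**Figure D5:**
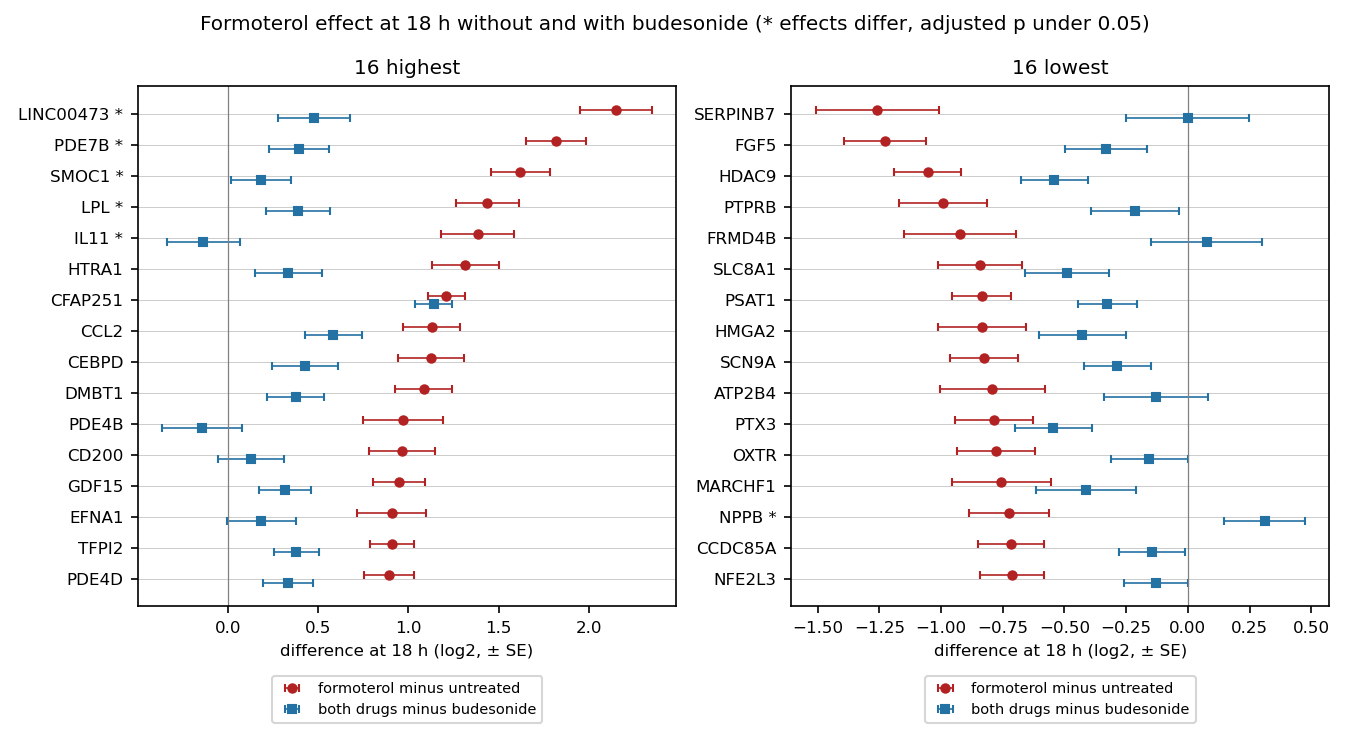
Formoterol effect at 18 h (log2, ± SE) for the 16 highest and 16 lowest changes, as formoterol minus untreated (red circles) and as both drugs minus budesonide (blue squares), 4 arrays a group. A star marks an interaction with an adjusted p under 0.05, and CFAP251 has near equal effects (1.21 and 1.14) while IL11 goes from 1.38 to −0.14.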

How the data were processed

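The authors made the deposited log2 values, 1 for each probe set and array, with RMA, per the submitters' processing notes; its version, and whether all 64 arrays were processed together, are not given in the sources used here. RMA sets the arrays to a common scale, so that array medians lay between 4.87 and 4.95. How precise a difference is depends on the few arrays in a group. Of 49395 probe sets 44994 had 1 gene symbol, 1832 several and 2569 none, and only the first were used. Each of 18132 genes was taken from its probe set with the highest mean over the 64 arrays.

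A model with a mean for each of the 16 groups was fitted over all 64 arrays with limma 3.58.1 in R 4.3.3 (eBayes with an intensity trend). Tests are two-sided, and p-values were adjusted by Benjamini-Hochberg over all genes within each comparison. Effects at different times, and with and without budesonide, were compared as differences within this model. Figures used matplotlib 3.10.9 in Python 3.11.15. The fit was tested on simulated data for formoterol against control at 18 h over 18132 genes. It called all 50 genes raised and all 50 lowered by 1. It also called 30 of 50 raised and 34 of 50 lowered by 0.5, and 9 of 17932 left alone. Whether these counts hold for the measured arrays, among which formoterol replicate 4 had the highest residual SD (0.270), was not tested.

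Genes named at 18 h are the 16 highest and 16 lowest called changes whose higher group mean reached the median of all probe set values. At 1, 2 and 6 h they are the 8 highest and 4 lowest under the same rule. Late genes were called at 18 h and beyond the effect at 6 h, and turned genes against an earlier call. Any gene of the 30 lists and NR3C1 could be named, and others are said to be chosen after their values were seen. The members and lists were chosen with earlier results of these data known.

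Groups share replicate numbers. Deviations of same-numbered arrays from their group means correlated between −0.11 and 0.24 for untreated and formoterol arrays at 18 h; 1 of the 4 pairs lay under 0.1, so these were not taken as paired. They correlated between 0.17 and 0.41 at 1 h, 0.32 and 0.55 at 2 h, 0.08 and 0.34 at 6 h, and 0.19 and 0.33 for budesonide with and without formoterol at 18 h. By these data, not by the labels, the numbers pair arrays at 1 h, at 2 h and in the last case, where every pair lay over 0.1. Alternatives covered the replicate block, the arrays in the fit, centring, normalization, the variance prior, array weights, dim genes, the summary of probe sets and leaving out arrays. Cyclic loess, and what remained without formoterol replicate 4, were added after seeing the data.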

Additional observations from a re-analysis of the deposited data

Results flagged for a closer look

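In 4 of 64 groups of 4 arrays examined, that is the untreated and formoterol arrays at 18 h of the 32 genes with the highest and lowest changes, 1 array lay apart from the others; chance gives this in about 5% of groups. EFNA1 read 9.09 in formoterol replicate 4, and LINC00473 7.01 in the same array, both above the other formoterol arrays. GDF15 read 5.40 in untreated replicate 3, below the others by little, and PTX3 8.23 in untreated replicate 4, above 3 arrays at 8.19.

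The formoterol effect at 18 h differed from that at 6 h, by the test of the difference, for 10 of these genes. It was lower at 18 h for PDE7B (−2.18), LINC00473 (−1.76), CD200 (−1.72), SMOC1 (−1.65), DMBT1 (−1.13), PDE4D (−1.11), LPL (−1.10), IL11 (−1.06) and CFAP251 (−0.91), which were higher at 6 h. It was also lower for PSAT1 (−0.98), which was near 0 at 6 h.

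The effect at 18 h differed with budesonide, by the interaction, for LINC00473 (−1.67), IL11 (−1.52), SMOC1 (−1.44), PDE7B (−1.42), LPL (−1.05) and NPPB (1.04). In each of these 6 genes the effect was nearer to 0 with budesonide.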

How the results depend on the processing

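For formoterol against control at 18 h (201 genes called), the replicate block over all arrays gave 527, the replicate block within time 965, a fit of only the compared groups 77 (201 with the replicate block as well), array weights 311, and leaving out 1 array 93 to 348. For the effect at 18 h against 6 h (254) these gave 603, 1030, 145 and, without 1 array, 173 to 317, and the mean of all probe sets gave 154. Against 2 h (452) the replicate block gave 756, the block within time 1216, only the compared groups 280, the block with only the compared groups 760, and leaving out 1 array 380 to 505. Against 1 h (203) the replicate block gave 498, the block within time 927, the block with only the compared groups 554, array weights 344, and leaving out 1 array 151 to 262. For formoterol added to budesonide (118) the replicate block gave 359, the block within time 665, only the compared groups 184, the block with only those 1306, array weights 314, leaving out all replicate 1 arrays 57, and leaving out 1 array 76 to 115. For the interaction (50) the same settings gave 167 with the replicate block, 339 within time, 186 with the block and only the compared groups, 87 with array weights, 22 without all replicate 1 arrays and 35 to 79 without 1 array. Genes called at 6 h and again at 18 h in the same direction (104) numbered 222 with the replicate block, 371 within time, 60 with only the compared groups and 70 to 115 without 1 array. For untreated and formoterol arrays at 18 h, not every array correlated best with its own number: untreated replicates 1 and 4 did so with formoterol replicates 4 (0.139) and 1 (0.140). The causes of the differences between these settings were not tested. Fits that left out arrays also rested on fewer arrays. At 1 h and 2 h the block over all arrays moved counts by less than 1.5 times (243 to 352 and 834 to 1200).

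At 18 h centring gave 188 calls, quantile normalization 189, cyclic loess 195 and the filter on dim genes 226, and the share of risen genes among the called stayed within 10 points of the main 42.3% under these scalings. Of the 32 genes with the highest and lowest changes 21 kept their call under all 12 alternatives that left out no single array, and none changed direction under any of them. Called in all 8 fits without 1 array were 67 genes, 35 risen and 32 fallen. Dim genes made up 25.9% of the risen and 8.62% of the fallen genes, against 42.3% of all genes.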
